A study of Mus musculus with 54 samples.

Results

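The genes described here encode the proteins of the cytosolic ribosome. They were taken by symbol: names starting with Rpl or Rps and a digit, Rplp0 to Rplp2 and Rpsa, without the S6 kinase genes and the genes marked as pseudogenes. Of 9985 genes listed in both expression tables, 83 met the rule, and all of them passed the filter on low values. By name, 49 encode proteins of the large subunit and 33 proteins of the small subunit. The remaining gene, Rps19bp1, encodes a protein that binds Rps19 and is no part of the ribosome. The genes Fau and Rack1 encode ribosomal proteins under other names and are given separately.

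A ribosome needs each of its proteins together with ribosomal RNA, and its assembly in the nucleolus is one of the costliest activities of a growing cell. In mammals the messengers of ribosomal proteins start with a run of pyrimidines, the terminal oligopyrimidine (TOP) motif, through which mTORC1 and the binding protein Larp1 adjust their translation and stability. Lymphocytes that leave rest and divide raise ribosome production, so these genes are often read beside growth and cell division.

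The cells were group 2 innate lymphoid cells (ILC2s), tissue-resident lymphocytes that make type 2 cytokines, sorted from the small intestine of C57BL/6 mice 8 to 12 weeks old, with males and females pooled. In the culture experiment, wild-type cells grew in IL-2 plus IL-7, without or with added IL-25, and were taken at 4, 48 or 72 h, which gives 6 groups of 4 libraries. IL-25 is an epithelial cytokine that activates ILC2s, and IL-2 and IL-7 were present in every culture group. In the genotype experiment, 4 groups of 4 libraries came from cells labelled nILC2 or iILC2. These were taken from Rxrg+/+ mice (CTRL in the titles, WT in the genotype label) or Rxrg-/- mice (KO), and all 16 libraries are labelled IL25 for 48 h. Rxrg encodes the nuclear receptor retinoid X receptor gamma. The labels spell out neither prefix, n or i, and they do not say whether libraries of a group came from separate mice or cultures, so p-values measure the spread between these libraries. Libraries were made by Smart-seq2, which copies whole messengers from few cells, and levels are in TPM, a share of the transcripts of a library that corrects for gene length. The number of reads behind a TPM value is unknown.

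Of 10 ILC2 marker genes, all 10 are listed in both tables, and their summed level was 2526 to 6469 TPM in the culture libraries and 1092 to 2747 TPM in the genotype libraries. Markers of other cell types were listed only in part, so these lists give a partial check. Of the red cell precursor markers only the alpha globin genes Hba-a1 and Hba-a2 were listed in culture, and only Hba-a1 in the genotype table. The highest sum in any library was 798 TPM for red cell precursor markers (2 of 5 listed in culture, 1 in the genotype table), 282 TPM for B or plasma cell markers (1 of 5, Cd79b), 186 TPM for epithelial markers (1 of 5, Epcam), 171 TPM for mast cell markers (1 of 5, Kit) and 129 TPM for T cell markers (2 of 7). It was 10.8 TPM for ILC3 markers (2 of 3 in culture, 1 in the genotype table), 5.48 TPM for myeloid markers (0 of 5 in culture, 1 in the genotype table) and 5.11 TPM for NK cell or ILC1 markers (2 of 4 in culture, 0 in the genotype table). Rxrg was at 12.2 to 18.4 TPM in nILC2 CTRL and 1.27 to 3.12 TPM in nILC2 KO, and at 1.26 to 1.83 TPM in iILC2 CTRL and 0 to 0.48 TPM in iILC2 KO. In both cell populations the CTRL and KO libraries did not overlap.

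The 83 genes together took up 25.1 to 32.6% of the listed TPM in the 24 culture libraries and 26.6 to 40.01% in the 16 genotype libraries. The median of their mean levels was 2761 TPM in the culture table and 3246 TPM in the genotype table. They made up 68 of the 100 genes with the highest mean in the culture table and 70 of 100 in the genotype table. Rplp1, a protein of the stalk that recruits elongation factors, was the most abundant in culture at 7207 TPM, followed by Rps27 at 6545 TPM and Rpl41 at 6516 TPM. In the genotype table Rpl41, the smallest ribosomal protein, led at 8537 TPM. The lowest were Rps19bp1, at 60.9 TPM in culture and 37.7 TPM in the genotype table, the Rps27 copy Rps27rt at 95.4 and 81.3 TPM, and Rpl7l1, a relative of Rpl7 known from ribosome assembly, at 140 and 85.5 TPM.

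Most of these genes moved little. The range of a gene's group means stayed under 0.5 on the log2 scale for 63 of 83 genes across the 6 culture groups and for 62 across the 4 genotype groups. It reached 1 or more for 4 genes in culture, Rps19bp1 (1.62), Rpl7l1 (1.40), Rps2 (1.29) and Rps27l (1.01), and for 1 gene, Rps27rt (1.02), in the genotype table. The narrowest range in culture was that of Rpl22 at 0.14. The variant copy Rpl22l1 had the narrowest range in the genotype table, at 0.06. Between libraries of 1 group the median coefficient of variation was 6.24% in culture and 4.65% in the genotype table. Rps2 stood far from this, at 31.4% and 51.0%, while the next highest were Rpl35 at 13.0% in culture and Rps27rt at 14.2% in the genotype table. Summed TPM of large subunit genes was 1.19 to 1.29 times that of small subunit genes in every library of both tables.

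The 83 genes lie on 19 chromosomes in the RefSeq annotation of GRCm38.p6, with 14 on chromosome 7 and 4 on the X chromosome (Rpl10, Rpl36a, Rpl39 and Rps4x). RefSeq promoter sequence was at hand for 63 of them. A pyrimidine run at the start was searched on the sense strand as a C followed by 5 or more C or T, with its first base within 5 bases of the annotated start. It was present for 27 of the 63 genes (42.9%) and for 3229 of all 27025 genes with promoter sequence (11.9%). The windows of 30 bases below hold 15 before and 15 from the annotated start that came with the promoter sequence. They are shown for the genes with the largest falls in iILC2 and for the genes that ran against the rest. For some genes the RefSeq gene begins further upstream, as at chr17:24718121 for Rps2 and chr9:66944624 for Rps27l. Whether a run is found depends on the start used. Capitals mark the run where one was found.

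Rps27: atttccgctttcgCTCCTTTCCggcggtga
Rps24: cccgcgctggggtCCTTCCTTgcgcgttga
Rps15a: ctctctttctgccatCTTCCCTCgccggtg
Rps27rt: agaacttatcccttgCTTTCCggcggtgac
Rps7: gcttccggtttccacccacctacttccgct
Rps27l: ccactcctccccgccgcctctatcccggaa
Rpl36al: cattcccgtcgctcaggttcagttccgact
Rpl22l1: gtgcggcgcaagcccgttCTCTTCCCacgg
Rps2: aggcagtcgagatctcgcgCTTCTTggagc

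In GRCm38.p6 these windows lie at chr3:90213634-90213663 on the minus strand (Rps27), chr14:24490663-24490692 on the plus strand (Rps24), chr7:118116133-118116162 on the minus strand (Rps15a) and chr9:114982725-114982754 on the minus strand (Rps27rt). The others lie at chr12:28635939-28635968 on the minus strand (Rps7), chr9:66946071-66946100 on the plus strand (Rps27l), chr12:69184053-69184082 on the minus strand (Rpl36al), chr3:28805493-28805522 on the plus strand (Rpl22l1) and chr17:24720048-24720077 on the plus strand (Rps2). Rps7, which fell with them, has no such run in this window, and Rpl22l1, which did not fall, has one of 8 bases.

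Between the cell populations the difference was broad. In CTRL cells the 83 genes together took up 36.6% ± 2.40 (SD, n = 4) of listed TPM in nILC2 and 27.3% ± 0.70 (SD, n = 4) in iILC2. The nILC2 libraries ran from 34.7 to 40.01% and the iILC2 libraries from 26.6 to 28.2%, so the groups did not overlap. In bulk RNA of this kind, a change in the mix of cells and a change of RNA per cell cannot be told apart.

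**Figure D1:**
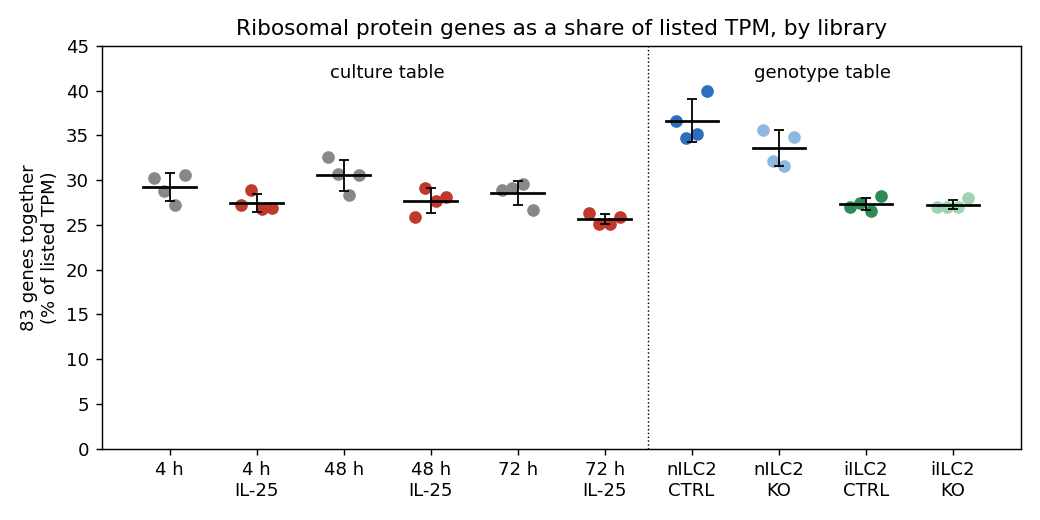
Summed TPM of the 83 genes as a percentage of all listed TPM (vertical axis) in each library (points) of the 6 culture groups and 4 genotype groups; lines are means and bars 1 SD, n = 4. The nILC2 CTRL libraries sit between 34.7 and 40.01% and the iILC2 CTRL libraries between 26.6 and 28.2%.

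Gene by gene, limma with Benjamini-Hochberg adjustment over all genes (calls at an adjusted p under 0.05) found 71 of the 83 genes lower and 2 higher in iILC2 than in nILC2 of CTRL mice. Over all 10069 genes tested, 45.5% were called, 23.6% lower and 21.9% higher. The median difference on the log2(TPM + 1) scale was -0.39 for the 83 genes and -0.03 for all genes tested. The calls covered both subunits, with 42 of 49 large subunit genes and 29 of 33 small subunit genes lower. In 72 genes every iILC2 CTRL library was below every nILC2 CTRL library, against 21.3% of all genes.

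Rps27, a zinc-finger protein of the small subunit, was at 8473, 7567, 8725 and 9769 TPM in nILC2 CTRL and at 5150, 5198, 4893 and 5165 TPM in iILC2 CTRL. All 4 iILC2 libraries were below all 4 nILC2 libraries, a 1.69-fold lower mean (log2 difference -0.75, adjusted p = 5.7e-07, limma). Rps24, a small subunit protein mutated in some patients with Diamond-Blackfan anaemia, fell from 6243, 5653, 5602 and 6860 TPM to 3587, 3572, 3506 and 3645 TPM (log2 difference -0.76, adjusted p = 1.2e-07, limma). Rps7, a small subunit protein that can bind Mdm2, fell from 3015, 2675, 2593 and 3241 TPM to 1720, 1715, 1707 and 1841 TPM (log2 difference -0.72, adjusted p = 9.2e-08, limma). The groups of Rps24 and Rps7 did not overlap either. Rps27rt had the largest fall, of 0.98 on the log2 scale, at a level of 121 TPM against 62.7 TPM. Rps15a, also of the small subunit, fell by 0.67.

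The stalk genes and the 5S pair were named whatever their result. Their log2 differences were smaller than those above, which were picked as the largest falls. This order follows from the choice and was not tested between genes. Rplp1 fell by 0.47 and Rpl12, which lies at the stalk base, by 0.54. Rplp2, the partner of Rplp1, fell by 0.26 and Rplp0, which anchors the stalk, by 0.22. Of the pair that carries 5S RNA and can bind Mdm2, Rpl5 fell by 0.39 and Rpl11 by 0.21. Rps27a, made as a fusion with ubiquitin, fell by 0.39. Each of these 7 genes passed the test, although Rplp0 turned to 0.10 under quantile normalization and to 0.16 when each library was scaled to the summed members, where Rpl11 turned to 0.18 and Rplp2 to 0.13.

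The genes that rose were Rps27l, a copy of Rps27 known as a p53 target, and Rpl36al, an autosomal copy of the X-linked Rpl36a. Rps27l stood at 548, 530, 560 and 389 TPM in nILC2 CTRL and at 599, 734, 712 and 645 TPM in iILC2 CTRL (log2 difference 0.42, adjusted p = 0.0033, limma, past the threshold as deposited but not under quantile normalization). Rpl36al stood at 1099, 1172, 1095 and 1047 TPM in nILC2 CTRL and at 1279, 1319, 1256 and 1222 TPM in iILC2 CTRL (log2 difference 0.20, adjusted p = 0.002, limma, turning to -0.22 under quantile normalization). For both copies every iILC2 library was above every nILC2 library. Rpl22l1, the copy of Rpl22, was level at 1466 and 1470 TPM in nILC2 and iILC2 CTRL (adjusted p = 0.97, limma).

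In KO cells the same contrast, made on other libraries, gave 71 genes lower and 0 higher, where 17.6% of all genes were lower and 13.8% higher. These are limma calls, and the largest falls were those of Rps24 (log2 difference -0.55), Rps7 (-0.51), Rps15 (-0.49), Rps27rt (-0.47) and Rps27 (-0.46). The call of Rps27rt was lost on leaving out any library of the 8 other than nILC2 KO library 3, with adjusted p up to 0.12. The median over the 83 genes was -0.28. Across the 83 genes the differences in CTRL and in KO ran in parallel (Pearson's r = 0.913, Spearman's rho = 0.918). Over 9986 other genes r was 0.903. The genes of each contrast share their libraries and are not independent points.

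A scaling to the summed TPM of the 83 genes, chosen after seeing the data, shows the order within the group. On this scale 24 genes were called higher and 18 lower in iILC2 CTRL, where 42.7% of all genes were higher and 11.6% lower. Rps27l stood at 0.80, Rpl36al at 0.59 and Rpl22l1 at 0.39, while Rps27rt stood at -0.60, Rps24 at -0.38, Rps27 at -0.37 and Rps7 at -0.33. Rps27rt, Rps24, Rps27 and Rps7 thus fell more than the summed group, which follows from their being picked for the largest falls. Rps27l, also of the small subunit, went the other way. For genes with a pyrimidine run at the start the median difference as deposited was -0.40 (27 genes), and without one -0.35 (36 genes).

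**Figure D2:**
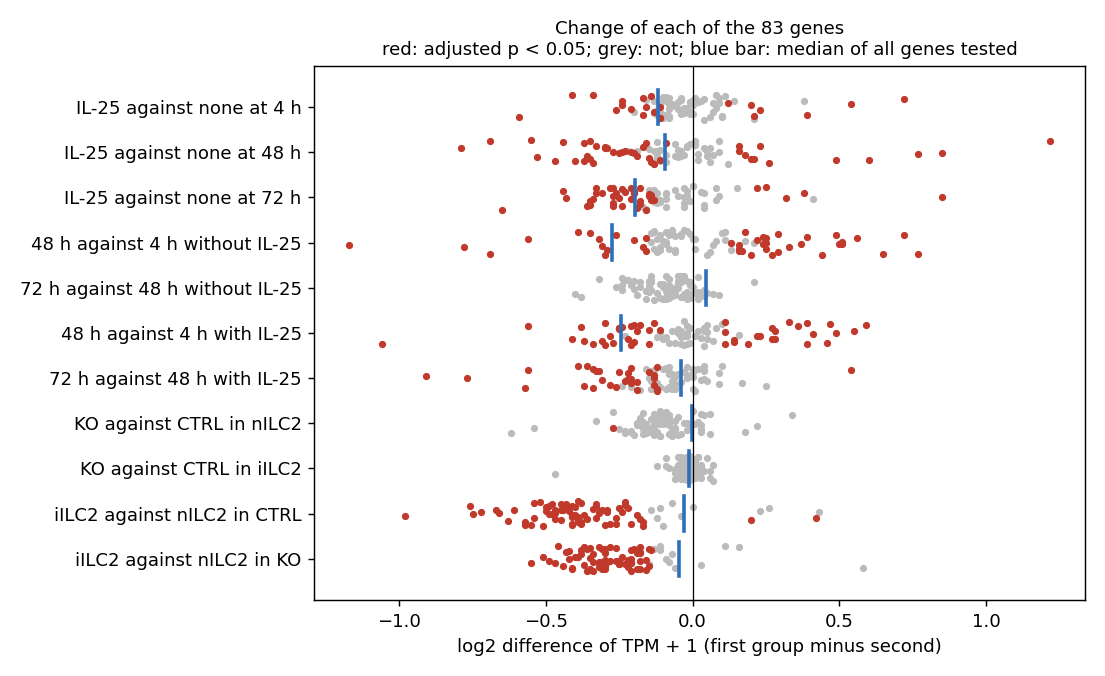
Each point is 1 of the 83 genes, placed by its difference on the log2(TPM + 1) scale (horizontal axis) in 11 comparisons (vertical axis); red points passed an adjusted p of 0.05 and blue bars mark the median of all genes tested. The iILC2 comparisons sit left of the blue bars, with medians of -0.39 and -0.28, while KO against CTRL in iILC2 stays near 0.

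Other genes of ribosome production and translation were read beside them in CTRL cells, where 21.9% of all genes were higher and 23.6% lower in iILC2. Of 34 genes of ribosome assembly, 19 were lower and 1 higher in iILC2, with a median difference of -0.44. Among these Myc, a transcription factor that drives ribosome genes, was at 49.9 ± 6.66 TPM in nILC2 and 14.96 ± 3.63 TPM in iILC2 (SD, n = 4), Gnl3, a nucleolar GTPase, at 35.2 ± 4.90 and 14.6 ± 3.42 TPM, and Polr1b, a subunit of RNA polymerase I, at 11.7 ± 1.85 and 3.50 ± 0.63 TPM. Fau and Rack1 fell, by 0.30 and 0.33 on the log2 scale. Of 17 other genes of the TOP class tested, 7 were lower and 1 higher, among them Tpt1, a growth-linked TOP gene, with a fall of 0.48. Of 78 mitochondrial ribosomal protein genes, 23 were higher and 10 lower, with a median of 0.11. Of 15 mTORC1 and TOP regulators, 5 were lower and 1 higher, and of 6 dedicated carriers of ribosomal proteins 2 were lower and 0 higher.

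Marker genes also differed between the populations. The 10 ILC2 markers summed to 2423 to 2747 TPM in nILC2 CTRL and 1092 to 1159 TPM in iILC2 CTRL. The 2 T cell markers of 7 that are listed summed to 50.5 to 83.2 TPM and 6.97 to 25.2 TPM, and Cd79b, the 1 listed of 5 B or plasma cell markers, to 117 to 154 TPM and 238 to 282 TPM. Epcam, the 1 listed of 5 epithelial markers, was at 15.5 to 28.1 TPM and 4.01 to 6.58 TPM. Kit, the 1 listed of 5 mast cell markers, was at 29.3 to 34.2 TPM and 6.22 to 13.8 TPM. Their part in the result was not tested.

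Loss of Rxrg left few calls among these genes. In nILC2, 1 gene, Rps7, was lower and 0 were higher in KO, where 1.54% of all genes were called (limma). At an unadjusted p under 0.05 stood 38 of the 83 genes, 36 of them lower (limma). Counts at an unadjusted p, here and below, lack the share of all genes at that threshold, so they have no background. Rps7 was at 3015, 2675, 2593 and 3241 TPM in CTRL and at 2626, 2201, 2324 and 2369 TPM in KO (log2 difference -0.27, adjusted p = 0.049, limma). The highest KO library of Rps7, number 1, lay above the lowest CTRL library, number 3, so the groups overlapped. Rps27 was at 8634 TPM in CTRL and 6905 TPM in KO, with an adjusted p of 0.05 that missed the threshold (limma), and Rps27l was at 507 and 637 TPM (adjusted p = 0.1, limma).

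Over the group, 71 of 83 genes had a lower mean in KO nILC2, with a median of -0.11 against 0.00 over all genes, and the summed share was 36.6% ± 2.40 in CTRL and 33.6% ± 2.00 in KO (SD, n = 4). The shares overlapped, at 34.7 to 40.01% and 31.5 to 35.6%. The ILC2 markers summed to 2423 to 2747 TPM in nILC2 CTRL and 1759 to 2416 TPM in nILC2 KO, and Epcam was at 15.5 to 28.1 and 6.46 to 12.8 TPM, both with groups apart. Their part in the result was not tested. The count of calls turned on single libraries. Without KO library 1 it was 20 (18 lower and 2 higher), without CTRL library 2 it was 6, and without CTRL library 1 or 4 or KO library 2, 3 or 4 it was 0, with adjusted p for Rps7 up to 0.15. With the library number as a block it was 7, all lower. These counts are given without the share of all genes called in the same fits.

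In iILC2 0 of the 83 genes were called in KO and 0% of all genes were (limma, 0 of the 83 at an unadjusted p under 0.05). The summed share was 27.3% ± 0.70 in CTRL and 27.3% ± 0.49 in KO (SD, n = 4). Rps7 was at 1746 and 1670 TPM and Rps27 at 5101 and 4985 TPM. The difference between the KO effects in the 2 populations was tested directly, and it was called for 0 of the 83 genes and 0% of all genes, with 11 of the 83 at an unadjusted p under 0.05 (limma).

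In culture, the summed share of the 83 genes had a lower mean with IL-25 at each time. The share with IL-25 and without it was 27.4% ± 0.97 and 29.2% ± 1.55 at 4 h, 27.7% ± 1.36 and 30.5% ± 1.74 at 48 h, and 25.6% ± 0.58 and 28.6% ± 1.32 at 72 h (SD, n = 4). The ranges overlapped at 4 and 48 h and were apart at 72 h, with 25.1 to 26.3% against 26.6 to 29.6%.

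At 4 h, 7 of the 83 genes were higher and 15 lower with IL-25 by limma, beside 13.4% of all genes higher and 26.9% lower. Both counts were under the share of all genes. The split depends on the scaling, and the median of all genes was -0.12 on the deposited scale. Median of ratios scaling, under which Rpl10 and Rps4x moved from -0.11 to 0.04, gave 16 higher and 1 lower. The number of calls also depends on single libraries. It was 11 without the untreated library 1, 12 without the untreated library 4 and 14 without IL-25 library 4. Here and below, shares of all genes belong to the deposited scale and all libraries. Counts under another scaling or without a library have no such share beside them. Rplp1 fell furthest, from 11133, 10532, 8722 and 11252 TPM to 6896, 7599, 6557 and 6571 TPM, with groups apart (log2 difference -0.59, adjusted p = 4.7e-06, limma). Its stalk partners had log2 differences of 0.01 (Rplp2) and -0.08 (Rplp0), neither past the threshold.

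Rpl7l1 rose at 4 h from 147, 139, 155 and 142 TPM to 237, 228, 246 and 249 TPM, 1.65 times the untreated mean (adjusted p = 2.1e-06, limma). Rps27l rose 1.46-fold, from 714 to 1041 TPM (adjusted p = 1.2e-06, limma). Both sets of libraries were apart. Rps27 fell by 0.41, a call lost under median of ratios, and Rps19bp1 rose by 0.39.

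At 48 h, 12 genes were higher and 31 lower with IL-25 by limma, beside 21.4% of all genes higher and 28.7% lower. Median of ratios scaling gave 13 higher and 11 lower, and quantile normalization 17 higher and 23 lower. Small subunit genes made up 18 of the genes lower and large subunit genes 13. Rps27 was at 8552, 7756, 7032 and 7301 TPM without IL-25 and at 3944, 5343, 4973 and 4790 TPM with it (log2 difference -0.69, adjusted p = 9.6e-08, limma). The groups were apart, and those of Rps7 were too: 2774, 2456, 2461 and 2634 TPM without IL-25 and 1796, 2103, 1841 and 1730 TPM with it (log2 difference -0.47, adjusted p = 1.2e-07, limma).

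Rps19, the gene most often mutated in Diamond-Blackfan anaemia, fell by 0.53 at 48 h, Rps29, a small zinc-finger protein, by 0.55 and Rps27rt by 0.79. Among the rises, Rps27l went from 889, 916, 760 and 806 TPM to 1261, 1510, 1432 and 1556 TPM (log2 difference 0.77, adjusted p = 1.7e-09, limma). All IL-25 libraries of Rps27l were above all untreated ones. Rpl7l1 rose 1.81-fold from 90.3 to 163 TPM, Rpl22l1 from 629 to 942 TPM and Rps19bp1 by 0.49 on the log2 scale. Of the 5S pair, Rpl5 rose by 0.23, and Rpl11 was at -0.02 with an adjusted p of 0.75 (limma).

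At 72 h, 5 genes were higher and 35 lower by limma, beside 15.3% of all genes higher and 33.2% lower, with the median of all genes at -0.20. Median of ratios scaling gave 14 higher and 3 lower, so most of the 35 calls of a fall rest on the scaling. A lost call is not a change of direction. Rpl22l1 led the rises, from 645, 471, 545 and 496 TPM to 949, 1051, 887 and 980 TPM (log2 difference 0.85, adjusted p = 3.3e-06, limma). Its groups were apart, while its parent Rpl22 stood at 962 and 878 TPM (adjusted p = 0.18, limma). Rps19 led the falls, from 4674, 4898, 6083 and 5178 TPM to 3308, 2840, 3434 and 3687 TPM (log2 difference -0.65, adjusted p = 1.4e-05, limma). Rpl36al rose by 0.38, whereas the large subunit genes Rpl19 and Rpl21 fell by 0.44 and 0.43.

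**Figure D3:**
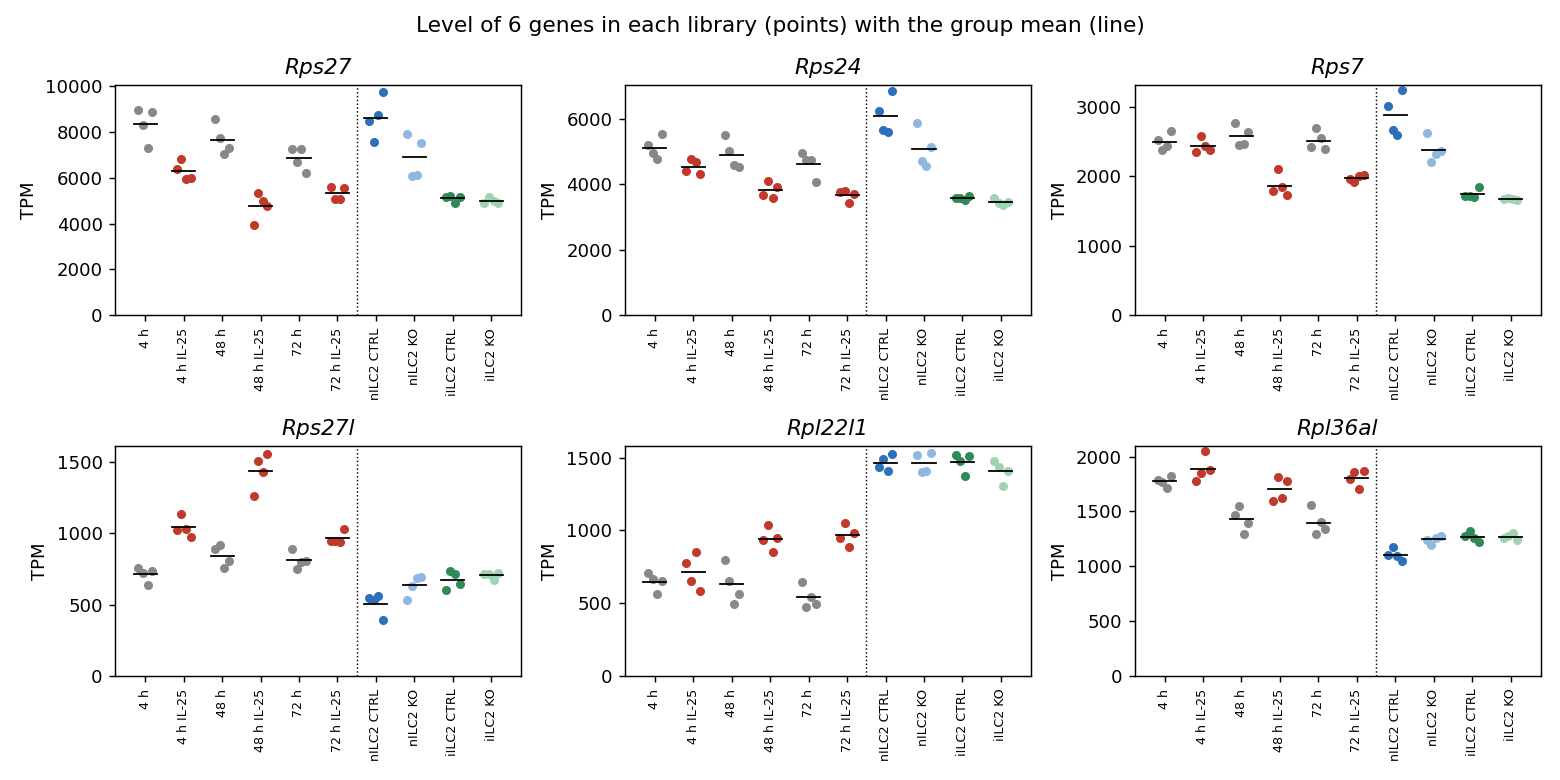
TPM (vertical axes, starting at 0) of Rps27, Rps24, Rps7, Rps27l, Rpl22l1 and Rpl36al in each library (points) of the 10 groups, with group means as lines. Rps27, Rps24 and Rps7 are lower in the iILC2 groups than in nILC2 CTRL, and Rps27l peaks in the 48 h IL-25 cultures at 1261 to 1556 TPM.

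The IL-25 effect itself changed with time for some genes, in numbers near or under the share of all genes in each direction. From 4 to 48 h it differed for 5 genes upward and 7 downward, where 17.2% of all genes differed upward and 10.7% downward (limma). From 48 to 72 h it differed for 3 upward and 9 downward, against 5.22% and 9.50% of all genes (limma). Rplp1 lost its fall between 4 and 48 h (difference of effects 0.54, adjusted p = 0.0013, limma) and Rps7 gained one (-0.43, adjusted p = 0.00014, limma). Rpl7l1 lost its rise between 48 and 72 h (-0.98, adjusted p = 1.8e-05, limma), when it stood at 95.9 TPM with IL-25 and 106 TPM without.

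A ratio of a variant copy to its parent within a library is the same under any scaling by 1 factor per library, though not under quantile normalization. The Rps27l level was 8.6% ± 0.22 of the Rps27 level at 4 h without IL-25 and 16.6% ± 0.55 with it. It was 11.0% ± 0.60 and 30.4% ± 2.16 at 48 h, and 11.8% ± 0.93 and 18.1% ± 0.81 at 72 h (SD, n = 4). At each time the libraries with and without IL-25 were apart, most widely at 48 h. In the genotype table it was 6.0% ± 1.35 in nILC2 CTRL, 9.4% ± 1.98 in nILC2 KO, 13.2% ± 1.37 in iILC2 CTRL and 14.2% ± 0.56 in iILC2 KO, so nILC2 was below iILC2 in either genotype.

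Rpl22l1 passed its parent under IL-25. Its level was 64.7% ± 8.54 of that of Rpl22 at 48 h without IL-25 and 105.9% ± 5.99 with it, and 56.4% ± 8.26 and 110.0% ± 6.83 at 72 h (SD, n = 4). At 4 h the ratios overlapped, at 59.4 to 83.5% and 64.2 to 87.9%. In the genotype libraries it ran from 124.5% to 161.9%. Rpl36al was at 53.7% ± 3.91 of Rpl36a at 48 h without IL-25 and 76.4% ± 4.31 with it, and ran from 32.0 to 40.5% in nILC2 CTRL and from 52.1 to 58.5% in iILC2 CTRL. Rpl7l1 stayed under 10% of Rpl7, at 9.3% ± 0.38 in the 4 h IL-25 cultures, where it was highest, and 2.5% ± 0.48 in nILC2 CTRL, where it was lowest.

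The pattern over the 83 genes under IL-25 in culture could be set beside that between the populations, since the comparisons share no library. At 48 h Pearson's r across the 83 genes was 0.824 and Spearman's rho 0.654. Without 7 of the genes that lie far out (Rps2, Rps27rt, Rps19bp1, Rpl22l1, Rps27l, Rpl7l1 and Rpl36al) r was 0.605 over 76 genes, and over 9763 other genes it was 0.372. For IL-25 at 4 h r was 0.715 (0.456 without those 7 genes) and 0.03 over other genes, and at 72 h it was 0.468. The value at 72 h without those 7 genes was 0.354, close to the 0.353 over other genes. These values describe genes that share the libraries of each comparison.

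**Figure D4:**
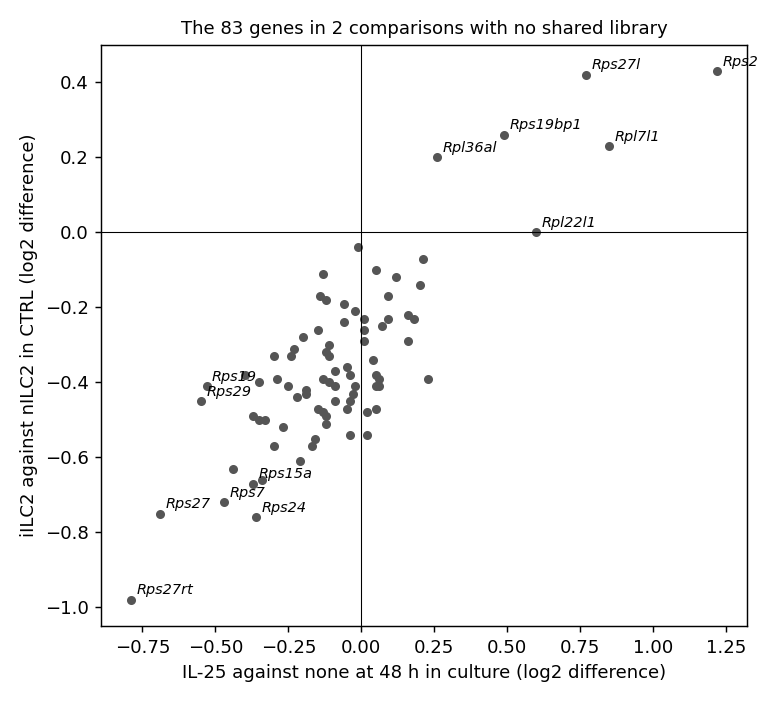
Each point is 1 of the 83 genes, with its log2 difference for IL-25 against none at 48 h in culture (horizontal axis) and for iILC2 against nILC2 in CTRL (vertical axis). Rps27 (-0.69 and -0.75) and Rps7 (-0.47 and -0.72) are low in both, Rps27l (0.77 and 0.42) is high in both, and most genes lie below 0 on the vertical axis.

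For the other gene lists the background is the share of all genes called, which was 13.4% higher and 26.9% lower at 4 h, 21.4 and 28.7% at 48 h, and 15.3 and 33.2% at 72 h. Ribosome assembly genes went up with IL-25 early. Of 34 genes, 31 were higher and 0 lower at 4 h, 30 and 0 at 48 h, and 10 higher and 6 lower at 72 h (limma). Myc was at 600 ± 28.9 TPM with IL-25 and 274 ± 5.33 TPM without at 4 h (SD, n = 4), and Rrs1, an assembly factor that brings in 5S RNA, at 160 ± 12.4 and 74.8 ± 26.3 TPM. Mitochondrial ribosomal protein genes were higher in 34 of 78 and lower in 4 at 4 h, and higher in 54 and lower in 3 at 48 h, but at 72 h 14 were higher and 20 lower. Of 17 other TOP genes, 9 were higher and 1 lower at 4 h, 8 and 4 at 48 h, and 4 and 6 at 72 h. Npm1, a nucleolar chaperone among them, stood at 2933 ± 115 TPM with IL-25 and 1337 ± 75.8 TPM without at 48 h (SD, n = 4). The carriers were higher in 4 of 6 at 4 h, 3 at 48 h and 0 at 72 h, among them Grwd1, a carrier of Rpl3, at 68.5 ± 7.41 and 31.5 ± 4.61 TPM at 48 h. Of 15 mTORC1 and TOP regulators, 6 were higher and 3 lower at 4 h, 3 and 2 at 48 h, and 3 and 8 at 72 h, with the translation repressor Pdcd4 at 4.96 ± 0.22 TPM with IL-25 and 42.7 ± 4.60 TPM without at 48 h. The mTORC1 and TOP regulators called at 48 h and the mitochondrial genes called at 72 h were near or under the background in both directions.

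Marker levels moved with IL-25 as well. The 10 ILC2 markers, which include the cytokine genes Il5 and Il13, summed to 2643 to 2948 TPM without IL-25 and 3755 to 4291 TPM with it at 48 h. The red cell precursor markers listed, 2 of 5, were the alpha globin genes Hba-a1 and Hba-a2. They summed to 479 to 553 TPM without IL-25 and 8.71 to 19.4 TPM with it at 48 h. T cell markers summed to 82.4 to 129 TPM without IL-25 and 23.95 to 28.97 TPM with it at that time. Epcam was at 95.6 to 113 TPM without IL-25 and 30.8 to 32.1 TPM with it, and Cd79b at 43.5 to 49.8 and 71.3 to 91.5 TPM. At 72 h, where the summed shares were apart, the ILC2 markers summed to 2900 to 3381 TPM without IL-25 and 5571 to 6469 TPM with it. Red cell precursor markers were then at 633 to 798 and 8.71 to 20.9 TPM, T cell markers at 96.0 to 114 and 30.8 to 42.2 TPM, Epcam at 68.0 to 87.8 and 39.3 to 48.9 TPM, and Cd79b at 37.6 to 47.1 and 132 to 157 TPM. At 4 h the ILC2 markers summed to 2526 to 2886 and 4144 to 4320 TPM, red cell precursor markers to 60.5 to 82.5 and 5.60 to 9.37 TPM, and Epcam was at 170 to 186 and 87.7 to 99.8 TPM. Their part in the changes of the 83 genes was not tested.

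Time in culture moved the genes in both directions. Between 4 and 48 h without IL-25, 28 of the 83 genes were higher and 15 lower by limma, beside 19.9% of all genes higher and 44.5% lower, and the median of all genes was -0.28. Rps19 rose 1.72-fold from 3126 to 5367 TPM, Rpl39, a short X-linked protein of the exit tunnel, 1.65-fold from 1952 to 3220 TPM, and Rps26, at the messenger exit, 1.57-fold from 2456 to 3850 TPM. Rps19bp1 fell from 86.3 to 37.9 TPM, Rpl7l1 from 146 to 90.3 TPM and Rplp1 from 10410 to 7071 TPM. Over this step red cell precursor markers went from 60.5 to 82.5 TPM at 4 h to 479 to 553 TPM at 48 h, T cell markers from 28.9 to 35.3 TPM to 82.4 to 129 TPM, and Kit from 74.9 to 112 TPM to 8.76 to 16.9 TPM, and their part was not tested. Quantile normalization gave 18 higher and 36 lower and median of ratios 58 higher and 2 lower, so the split follows the scaling. With IL-25, 22 were higher and 26 lower, beside 27.6% and 44.5% of all genes, and median of ratios gave 45 higher and 2 lower. Rpl39, Rpl41 and Rps26 led the rises there, by 0.59, 0.55 and 0.49 on the log2 scale, and Rps19bp1 the falls, by 1.06.

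Between 48 and 72 h without IL-25, 0 of the 83 genes were called and 0.379% of all genes were (limma, 21 of the 83 at an unadjusted p under 0.05). The count was 1 without the 72 h untreated library 1. With IL-25, 1 gene was higher, Rps27rt, and 30 were lower, beside 13.4% and 17.9% of all genes. Rpl7l1 fell from 163 to 95.9 TPM and Rps27l from 1440 to 965 TPM. Median of ratios scaling gave 1 higher and 10 lower in this step.

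Rps2, a small subunit protein at the messenger entry, varied between libraries of 1 group more than any other of the 83. At 48 h it was at 798, 910, 1257 and 1777 TPM in libraries 1 to 4 without IL-25 and at 3016, 2754, 2471 and 2316 TPM with it (log2 difference 1.22, adjusted p = 0.0032, limma). The groups were apart at 48 h, but overlapped at 4 h, where the libraries ran from 878 to 3390 TPM without IL-25 and from 1514 to 3446 TPM with it. Library 1 was the lowest in all 3 groups without IL-25 and the highest in all 3 with it. In the genotype table library 1 was again the lowest in every group, as with 574, 2201, 2628 and 2452 TPM in nILC2 CTRL.

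The within-group deviations of Rps2 were shared by genes outside the ribosome. Over 9845 genes tested in both tables, 32 had r of 0.9 or more with Rps2 in both, first of all Eif3f, a translation initiation factor, at 0.983 over 24 culture libraries and 0.994 over 16 genotype libraries. Of the other 82 genes taken by the symbol rule, 0 reached 0.8 in both, and the highest were Rpl22 at 0.196 in culture and Rps19bp1 at 0.504 in the genotype table. Eif3f was at 50.5, 152, 210 and 202 TPM in nILC2 CTRL. At 48 h in culture Eif3f averaged 153 ± 14.7 TPM with IL-25 and 155 ± 52.1 TPM without (SD, n = 4), with a log2 difference of 0.03. What sets these deviations was not tested. Rps2, like Rps27 with Rps27rt and other genes here, has near-identical copies or pseudogenes, between which reads may have been divided, and its level is uncertain on that account.

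**Figure D5:**
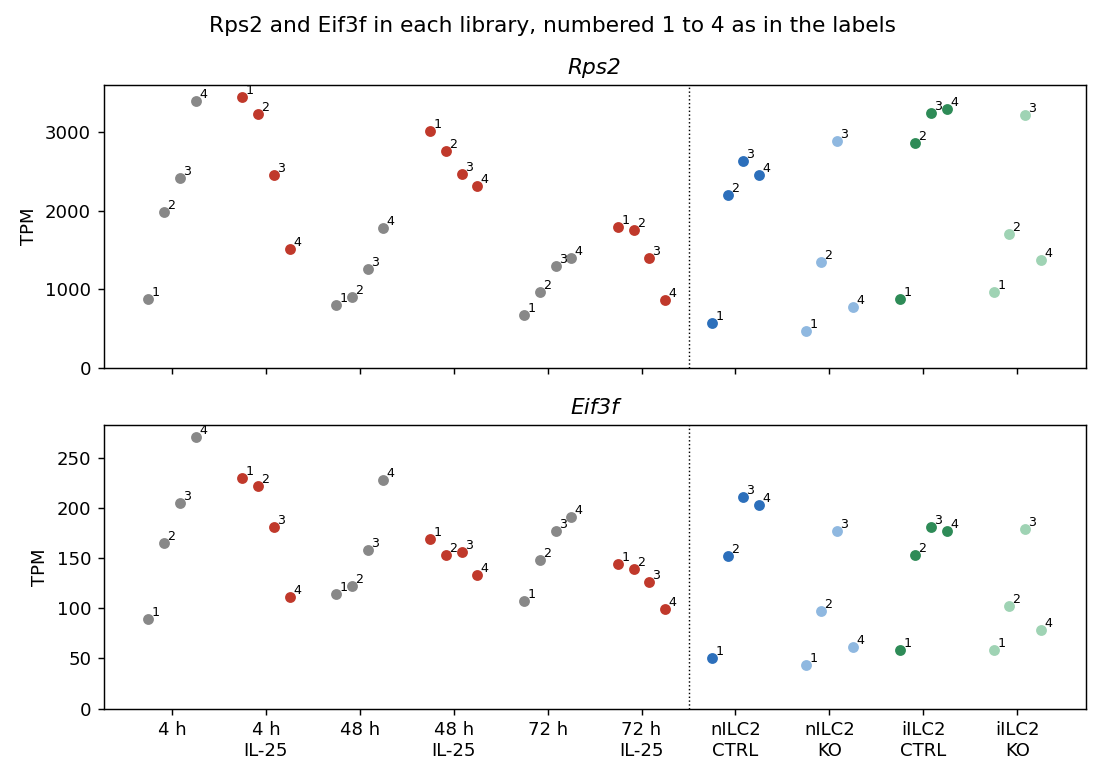
TPM (vertical axes, starting at 0) of Rps2 and Eif3f in each library of the 10 groups, with the library number of the labels beside each point. In nILC2 CTRL library 1 is at 574 TPM for Rps2 and 50.5 TPM for Eif3f, below the other 3 libraries, and the 2 genes place their libraries alike in most groups.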

How the data were processed

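Per the submitters' processing notes, tools including cutadapt 2.10, STAR 2.7.5c and RSEM 1.3.3 and the build mm10 were used. The authors deposited TPM values per gene in 2 tables, one of 24 culture and one of 16 genotype libraries, and read depth is unknown. The 14 chromatin samples were not analysed here. Fits with limma 3.58.1 (trend) were made on log2(TPM + 1) within a table, over all its groups, for genes of at least 1 TPM in at least 4 libraries (10548 and 10069 genes), and p-values were adjusted over all of them by Benjamini-Hochberg. A pseudocount of 1 understates changes of low genes. The fit was tested on simulated data. Alternatives were a pseudocount of 0.1 TPM, no filter or one of 5 TPM, median of ratios and quantile scaling, the compared groups alone, a replicate block, each library left out and, chosen after seeing the data, scaling to the summed members. Of these, only scaling to the summed members, in iILC2 against nILC2 of CTRL mice, has the share of all genes given. Counts under the others have none beside them.

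The members and lists were chosen with earlier results of these data known. Genes were named by rule: in each comparison up to 5 rises and 5 falls among called members, the variant copies with their parents, stalk, 5S pair and Rps27a, the highest, lowest and most variable genes, and up to 3 called genes per list. Some genes that the rule names are not reported here. Rps24, Rps7 and Rps27l were followed across groups after their values were seen. The labels state no pairing. Deviations of same-numbered libraries correlated above 0.1 in 18 of 24 pairs of libraries in the genotype table and in 3 of 60 in culture. They did so in all 4 pairs of nILC2 KO and iILC2 KO (0.102 to 0.231). No other pair of groups had all 4 above 0.1.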

Additional observations from a re-analysis of the deposited data

Results flagged for a closer look

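In 10 of 130 groups of 4 examined (12 genes and the summed share), 1 library lay far from the other 3, where chance gives about 1 in 20. In culture these were Rps19 with IL-25 at 4 h (3267 TPM, highest), Rpl7l1 (81.9 TPM, lowest) and Rpl22 (819 TPM, lowest) without IL-25 at 72 h, and Rps27l with IL-25 at 72 h (1027 TPM, highest). In nILC2 KO it was Rplp1 (8038 TPM, highest). In iILC2 CTRL these were Rps7 (1841 TPM, highest), Rps27 (4893 TPM, lowest) and Rpl7l1 (107 TPM, highest). In iILC2 KO they were the summed share (27.992%, highest) and Rps27l (673 TPM, lowest).

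The effect of IL-25 differed between times by limma's test of the difference. From 4 to 48 h the effect on the log2 scale moved up for Rplp1 (0.54), Rpl22l1 (0.47), Rplp0 (0.24), Rpl5 (0.23) and Rpsa (0.21). It moved down for Rps29 (-0.51), Rps19 (-0.44), Rps7 (-0.43), Rps9 (-0.22) and Rps3a1 (-0.20). Leaving out 1 of the 16 libraries lost some calls. For Rpl22l1 this held for 11 (adjusted p up to 0.12): 4 h untreated 1, 2 and 4, 4 h IL-25 2 and 4, 48 h untreated 2, 3 and 4, and 48 h IL-25 1, 2 and 4. For Rps19 it held for 4 h untreated 3, 4 h IL-25 2, 48 h untreated 4 and 48 h IL-25 1 and 4 (up to 0.072), for Rpsa for 4 h untreated 1, 4 h IL-25 3, 48 h untreated 2 and 48 h IL-25 3 (up to 0.059), and for Rps3a1 for 48 h untreated 1 and 48 h IL-25 3 (up to 0.059). From 48 to 72 h the effect moved up for Rps27rt (0.94), Rpl38 (0.51) and Rps29 (0.42). It moved down for Rpl7l1 (-0.98), Rps19bp1 (-0.56), Rps27l (-0.52), Rpl7a (-0.39) and Rpl5 (-0.37). The call of Rps29 was lost without 48 h untreated 1 or 2, 48 h IL-25 1 or 4, 72 h untreated 1 or 4, or 72 h IL-25 1 or 4 (adjusted p up to 0.087), and that of Rpl38 without library 1 of any of these groups or library 4 of either 72 h group (up to 0.072).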

How the results depend on the processing

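The number of the 83 genes called by limma moved by over 1.5 times mainly with the scaling, and the cause was not tested. With median of ratios the count for IL-25 was 24 at 48 h (43 as deposited) and 17 at 72 h (40), the difference of effects was called for 4 from 4 to 48 h and 4 from 48 to 72 h (12 each), and 11 changed from 48 to 72 h with IL-25 (31). With quantile normalization the difference of effects from 48 to 72 h was called for 25. From 48 to 72 h without IL-25, quantile normalization and scaling to the summed members gave 1 each (0). For KO in nILC2 (1) the count was 0 with a pseudocount of 0.1 TPM, median of ratios or the compared groups alone, 2 with a filter of 5 TPM or quantile normalization, and 7 with the replicate block, which moved no other count by over 1.5 times. For iILC2 against nILC2, scaling to the summed members, which removes the shared fall by construction, gave 42 in CTRL (73) and 24 in KO (71).

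Leaving out 1 library gave 11 to 22 calls for IL-25 at 4 h, 38 to 43 at 48 h and 33 to 49 at 72 h, 9 to 15 and 10 to 16 for the differences of effects, 39 to 47 and 42 to 47 from 4 to 48 h without and with IL-25, 0 to 1 and 24 to 30 from 48 to 72 h, 0 to 20 for KO in nILC2, 0 for KO in iILC2 and for the difference of KO effects, and 73 to 75 and 62 to 72 for iILC2 against nILC2 in CTRL and KO.

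Signs turned for small changes. With IL-25, median of ratios gave 0.04 for Rpl10 and Rps4x at 4 h (both -0.11), 0.01 for Rpl10 at 48 h (-0.09), and at 72 h 0.07 for Rpl10, 0.04 for Rpl3, 0.09 for Rpl5, Rpl7 and Rps27a and 0.10 for Rps4x. At 48 h quantile normalization gave 0.02 for Rpl10, 0.05 for Rpl3 and 0.00 for Rps4x. Scaling to the summed members gave 0.03 for Rpl10 and 0.01 for Rpl3 at 48 h and 0.01 for Rps4x at 72 h. For iILC2 against nILC2 in CTRL it gave 0.01 for Rpl10, 0.18 for Rpl11, 0.20 for Rpl22, 0.06 for Rpl3, 0.10 for Rpl7, 0.16 for Rplp0 and 0.13 for Rplp2, and quantile normalization gave -0.28 for Rpl22l1 (0.00), -0.22 for Rpl36al (0.20) and 0.10 for Rplp0. Of 1488 further values, 1303 kept direction and side of the threshold or moved by under 1 SD. TPM keeps no depth, so counting error cannot be given, and a TPM level is a share of the library's total.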
